A study of Rattus norvegicus with 13 samples.

Results

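Imprinted genes are read mainly from 1 parental copy, and the 10 genes described here, Igf2, Mest, Peg3, Plagl1, Ndn, Dlk1, H19, Igf2r, Cdkn1c and Gnas, are imprinted genes with known roles in growth. They were taken as the probes that the platform annotation gives to these symbols, with the brightest probe kept for each symbol. Of the 10 symbols, 9 were measured, of 14506 genes in all, and Peg3 had no probe of its own in the annotation and is only named here. The fat came from 13 female Sprague Dawley rats with 1 array each. In 6 of them the father had eaten pellets with 43% fat (the high-fat daughters), and in 7 the father had eaten laboratory chow with 9% fat (the control daughters). All fathers were mated at 15 weeks with females that ate chow, all daughters were weaned onto chow at 3 weeks, and fat was taken at 14 weeks, so no daughter ate the fathers' high-fat diet. The labels do not name the fat depot, the fathers or the litters, so the p-values rest on the variation among these animals alone and may be too small if daughters shared a father. By the study's own account the high-fat fathers were heavier and insulin resistant, and their daughters tolerated glucose poorly at a body weight like that of control daughters. Each daughter is named here by the number in her label, between 619 and 631 or between 656 and 664.

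Imprints are methyl marks on CpG dinucleotides that are set in the egg or the sperm and kept in the body of the offspring, where they silence 1 copy of a gene or of its control region. In rodents the growth-promoting genes of this set tend to be read from the father's copy and the growth-restraining ones from the mother's, so a daughter's Igf2 or Mest message comes mainly from the chromosome that her father passed on. In fat, Mest is known as a gene whose level goes with the enlargement of fat cells, Dlk1 marks preadipocytes and falls away as they mature, and Gnas encodes the G protein that links beta-adrenergic receptors to fat breakdown. The allele assignments used below are background from mouse and rat. The arrays read both copies together and cannot tell which one a message came from.

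Imprints sit in CpG-rich sequence, often at or near a gene's start, and 4 start-site windows are shown because their genes form the pairs compared across daughters further on, Plagl1 with Mest and Ndn with Igf2r. Each window runs from 250 bases before the RefSeq start to 50 after it, 5′ to 3′, in assembly GRCr8, with each CpG in capitals. Plagl1 lies at chr1:9297214-9297513 on the plus strand, Mest at chr4:60321564-60321863 on the plus strand, Ndn at chr1:125260809-125261108 on the plus strand and Igf2r at chr1:50526628-50526927 on the plus strand.
Plagl1: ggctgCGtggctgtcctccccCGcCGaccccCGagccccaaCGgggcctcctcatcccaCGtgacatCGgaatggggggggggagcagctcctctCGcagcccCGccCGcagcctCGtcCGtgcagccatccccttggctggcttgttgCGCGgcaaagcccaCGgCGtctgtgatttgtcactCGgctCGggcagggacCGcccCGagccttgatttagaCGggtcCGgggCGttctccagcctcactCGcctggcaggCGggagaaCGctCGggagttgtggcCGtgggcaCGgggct
Mest: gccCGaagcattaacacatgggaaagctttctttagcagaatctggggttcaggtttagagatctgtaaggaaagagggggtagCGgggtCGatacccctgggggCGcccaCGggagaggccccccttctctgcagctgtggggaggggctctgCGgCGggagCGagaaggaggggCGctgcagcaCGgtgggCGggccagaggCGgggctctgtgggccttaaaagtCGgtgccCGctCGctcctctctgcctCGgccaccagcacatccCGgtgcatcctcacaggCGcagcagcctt
Ndn: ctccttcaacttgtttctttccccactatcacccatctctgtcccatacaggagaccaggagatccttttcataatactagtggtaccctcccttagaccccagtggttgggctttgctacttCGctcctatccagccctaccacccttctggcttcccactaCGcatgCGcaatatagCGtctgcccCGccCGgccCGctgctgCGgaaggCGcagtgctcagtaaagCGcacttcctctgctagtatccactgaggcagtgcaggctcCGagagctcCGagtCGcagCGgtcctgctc
Igf2r: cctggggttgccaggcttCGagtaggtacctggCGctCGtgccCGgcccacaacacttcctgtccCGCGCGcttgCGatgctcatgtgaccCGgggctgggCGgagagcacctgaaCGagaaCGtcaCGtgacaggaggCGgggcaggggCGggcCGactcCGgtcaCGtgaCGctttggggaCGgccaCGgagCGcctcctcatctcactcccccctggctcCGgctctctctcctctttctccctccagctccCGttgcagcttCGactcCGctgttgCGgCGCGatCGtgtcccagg
These windows held 29 CpGs in Plagl1, 18 in Mest, 14 in Ndn and 30 in Igf2r, against a median of 7 over all 33469 rat windows of the same length. Windows were found for 8 of the 10 symbols, 11 windows in all because Igf2 and Gnas have several starts, and 10 of the 11 held more CpGs than that median. The hexamer TGCCGC, which in mouse the imprint-keeping protein Zfp57 binds when it is methylated, occurred on either strand in 3 of the 11 windows, those of Plagl1, Dlk1 and the upstream Igf2 start, and in 11.7% of all windows. These are counts of letters, the windows need not hold the imprint control regions, and no methylation was measured.

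Arrays differed in spread and in cell type markers. Some of these measures differed in mean between the 2 groups, and no test of the array measures against the fathers' diet was run. The standard deviation of all values of an array, its spread, lay between 1.78 and 1.96 log2 units, lowest in control 658 (1.78), control 631 (1.86) and high-fat 660 (1.86). It averaged 1.93 ± 0.038 (SD, n = 6) in high-fat and 1.89 ± 0.054 (SD, n = 7) in control daughters. The 4 widest arrays were high-fat 619, 620, 624 and 629, at 1.94 to 1.96, all from the lower range of numbers. Among daughters 656 to 664 the spread was 1.86 and 1.91 in high-fat and 1.78 to 1.93 in control daughters. Spread and the fathers' diet were thus partly tied, mainly among daughters 619 to 631. A fit with array spread as a covariate can take up a diet difference, and it cannot fully tell them apart. The mean of 18 skeletal muscle markers, a sign that muscle came with the fat, was 9.07 in high-fat 619 and 11.57 in high-fat 629, against 11.71 in control 662 and 11.56 in control 664, and 7.30 to 7.41 in the other 9 arrays. All 12 adipocyte markers were measured. Adipoq, which encodes the fat hormone adiponectin, stood at 13.64 to 13.96 in high-fat and 13.72 to 13.89 in control daughters, but 11 of the 12 had a higher mean in high-fat daughters, with a median difference of 0.10 log2 units. An unadjusted p under 0.05 was found for 4 of the 12 (33.3%), where 7.96% of all genes had one, and the 3 smallest were those of Fabp4, a fatty acid carrier (0.20 ± 0.06, SE), Lipe, the hormone-sensitive lipase (0.16 ± 0.05), and Plin1, a lipid droplet coat protein (0.18 ± 0.06), each with an adjusted p of 0.53 by limma. Of the markers of other cell types, 0 of 6 mesothelium genes had a higher mean in high-fat daughters, with a median difference of -0.40 log2 units and array means of 7.49 to 8.64 in high-fat and 7.44 to 9.01 in control daughters. Endothelium had 7 of 7 higher with a median of 0.10, brown fat 2 of 6, lymphocytes 2 of 7 and macrophages 5 of 10. Over all genes 58% had a higher mean, and no marker passed limma's adjusted test. Beyond fits that leave out the 4 arrays with high muscle signal (the muscle-rich arrays) or hold mesothelium markers as a covariate, the part of these cell types in the values below was not tested. In bulk tissue, fewer cells of a type and less RNA per cell cannot be told apart.

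In the daughters of high-fat fathers, 4 of the 5 paternally expressed genes measured had a higher mean level than in control daughters. The median difference of the 5, high-fat minus control, was 0.15 log2 units. Of the 3 maternally expressed genes, 2 had a higher mean, with a median difference of 0.05. With array spread as a covariate 1 of the 5 paternally expressed genes, Mest, and 0 of the 3 maternally expressed ones stayed higher, and the paternal median was -0.0097. That median was 0.051 without control 658 and 0.055 without high-fat 624. Over all genes in the comparison without a covariate 58% had a higher mean and 42% a lower one, and the median difference was 0.03. These shares are not given here for the fit with array spread as a covariate. None of the 9 genes passed limma's test adjusted over all genes, where 0% of the 14506 were called, and the adjusted p of the 9 ran from 0.53 for Gnas to 0.95 for Igf2. At an unadjusted p under 0.05, 0 of the 9 were called, by limma and by an unmoderated linear model alike, where limma's background share was 7.96%, made up of 5.42% higher and 2.54% lower in high-fat daughters. High-fat and control values overlapped for each of the 9 genes, and over all genes the groups were apart in 0.0827%.

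**Figure D1:**
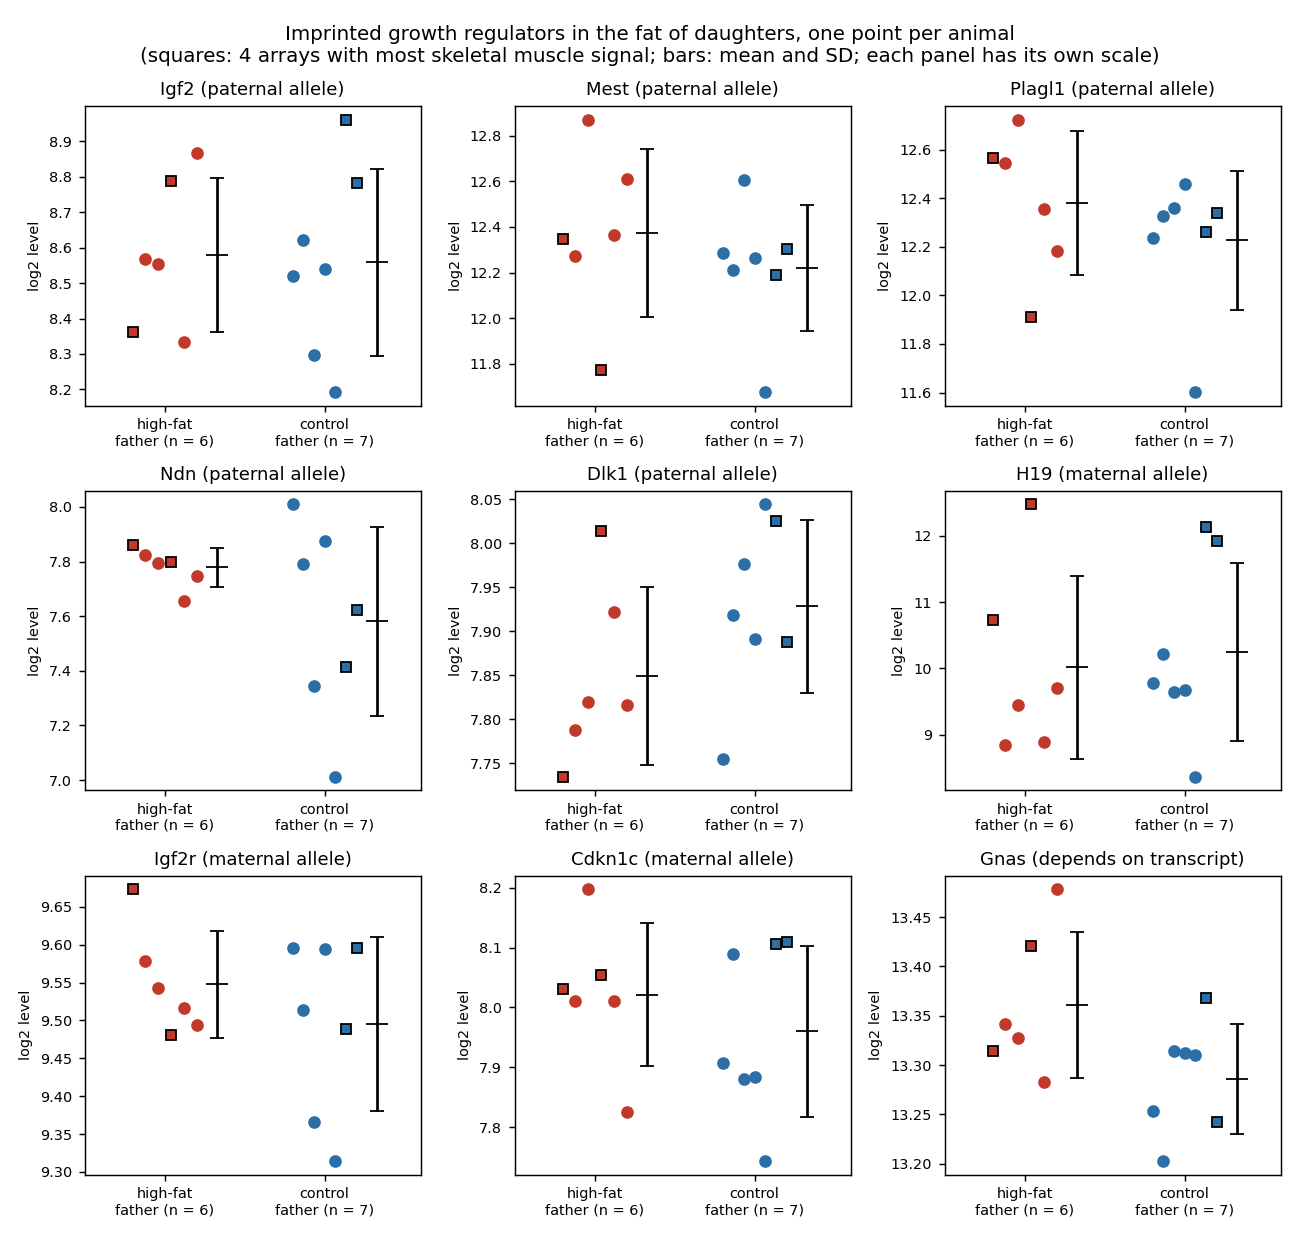
Log2 level of the 9 measured imprinted genes, 1 panel per gene with its own vertical scale and 1 point per daughter, high-fat daughters (red, n = 6) left of control daughters (blue, n = 7), with mean and SD as bars. Squares mark the 4 arrays with most skeletal muscle signal, which hold the 4 highest H19 values, from 10.72 to 12.47.

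Among the paternally expressed genes, Igf2 encodes a fetal growth factor that acts through the IGF and insulin receptors. Its log2 level was 8.33 at the lowest, 8.56 at the median and 8.87 at the highest in high-fat daughters, against 8.19, 8.54 and 8.96 in control daughters. The ranges lay almost on top of each other. The means were 8.58 ± 0.22 (SD, n = 6) in high-fat and 8.56 ± 0.26 (SD, n = 7) in control daughters, a difference of 0.02 ± 0.12 (SE) with a 95% interval of -0.25 to 0.29. It was 0.15 ± 0.12 without the 4 muscle-rich arrays (adjusted p = 0.79 by limma) and -0.092 ± 0.12 with array spread as a covariate.

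Mest encodes a membrane protein of the hydrolase fold that goes with fat-cell expansion. Mest had a log2 level of 12.27 and 12.35 in high-fat 620 and 619, 12.37, 12.61 and 12.87 in high-fat 660, 663 and 624, and 11.77 in high-fat 629. In control daughters it had 12.19, 12.21, 12.26, 12.28 and 12.30 in 662, 627, 656, 622 and 664, 12.61 in 631 and 11.68 in 658. A low value stood out in each group, high-fat 629 and control 658, and 5 of 6 high-fat daughters lay above the control mean. The difference was 0.15 ± 0.16 (SE), with means of 12.37 ± 0.37 (SD, n = 6) in high-fat and 12.22 ± 0.28 (SD, n = 7) in control daughters. It was 0.27 without high-fat 629, and 0.32 ± 0.18 once the 4 muscle-rich arrays were left out (adjusted p = 0.79 by limma). It was 0.055 without high-fat 624, 0.064 without control 658, 0.065 with array spread as a covariate and 0.066 with mesothelium markers as a covariate.

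Plagl1 encodes a zinc finger factor that in mouse regulates other imprinted genes, Igf2 and H19 among them. Its lowest, median and highest log2 levels were 11.91, 12.45 and 12.72 in high-fat daughters, against 11.60, 12.33 and 12.46 in control daughters. The low end of each group was again high-fat 629 and control 658. The difference of 0.15 ± 0.15 (SE; 95% interval -0.16 to 0.47) was of the same size as that of Mest, and it was 0.05 without control 658 and -0.0097 ± 0.13 with array spread as a covariate.

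Ndn encodes necdin, a protein that holds back cell division and fat-cell formation. Ndn read 7.66, 7.75, 7.79, 7.80, 7.82 and 7.86 in high-fat daughters 660, 663, 624, 629, 620 and 619. It read 7.01, 7.34, 7.41, 7.62, 7.79, 7.87 and 8.01 in control daughters 658, 631, 662, 664, 627, 656 and 622. The high-fat values sat close together inside a control range that reached both lower and higher, with an SD of 0.07 (n = 6) in high-fat and 0.35 (n = 7) in control daughters. All 6 high-fat daughters lay above the control mean, and the mean difference of 0.20 ± 0.13 (SE; 95% interval -0.09 to 0.48; adjusted p = 0.53 by limma) had the largest size among the paternally expressed genes. The 2 lowest values came from the control arrays with the smallest spread, and the difference was 0.10 without control 658 and -0.0014 ± 0.087 with array spread as a covariate.

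Dlk1, the preadipocyte factor that keeps fat-cell precursors from maturing, was the 1 paternally expressed gene with a lower mean in high-fat daughters. Its lowest, median and highest log2 levels were 7.73, 7.82 and 8.01 in high-fat daughters, against 7.76, 7.92 and 8.04 in control daughters. The whole range over 13 arrays was 0.31 log2 units. The difference was -0.08 ± 0.06 (SE; 95% interval -0.21 to 0.05), and -0.025 ± 0.055 with array spread as a covariate. Of the preadipocyte and fibroblast markers 4 of 11 measured had a higher mean in high-fat daughters, with a median difference of -0.01.

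H19, a noncoding RNA read from the mother's copy and a partner of Igf2 that shares its enhancers, varied most. H19 had log2 levels of 8.85, 8.89, 9.45, 9.70, 10.72 and 12.47 in high-fat daughters 620, 660, 624, 663, 619 and 629. It had 8.37, 9.65, 9.68, 9.77, 10.22, 11.92 and 12.13 in control daughters 658, 631, 656, 622, 627, 664 and 662. High and low animals occurred in both groups. The SD was 1.38 (n = 6) in high-fat and 1.34 (n = 7) in control daughters, and 99.6% of all genes had a smaller within-group SD. The mean difference was -0.23 ± 0.67 (SE), and its 95% interval, -1.66 to 1.20, leaves room for a level anywhere between 0.315 and 2.29 times that of control daughters.

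The 4 highest H19 values were those of the 4 arrays with most muscle signal, at 10.72 to 12.47, against 8.37 to 10.22 in the other 9. The second H19 probe gave the same picture, with 8.65 in high-fat 619, 10.35 in high-fat 629, 10.06 in control 662 and 9.91 in control 664, and 7.81 to 8.37 in the others. The 9 genes and both further lists described below gave 46 measured genes listed as imprinted. Of these 46, H19 was the 1 gene whose 4 muscle-rich arrays all lay above the other 9, and 0 had them all below. Over all genes 0.641% had them all above and 0.117% all below. H19 is known as a transcript that stays on in adult skeletal muscle. How much of its level came from muscle was not tested. Without these 4 arrays the SD of H19 was 0.42 (n = 4) in high-fat and 0.69 (n = 5) in control daughters. The difference was then -0.31 ± 0.33 (SE; 95% interval -1.04 to 0.41; adjusted p = 0.79 by limma). Over all 13 arrays with array spread as a covariate it was -0.80 ± 0.69.

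**Figure D2:**
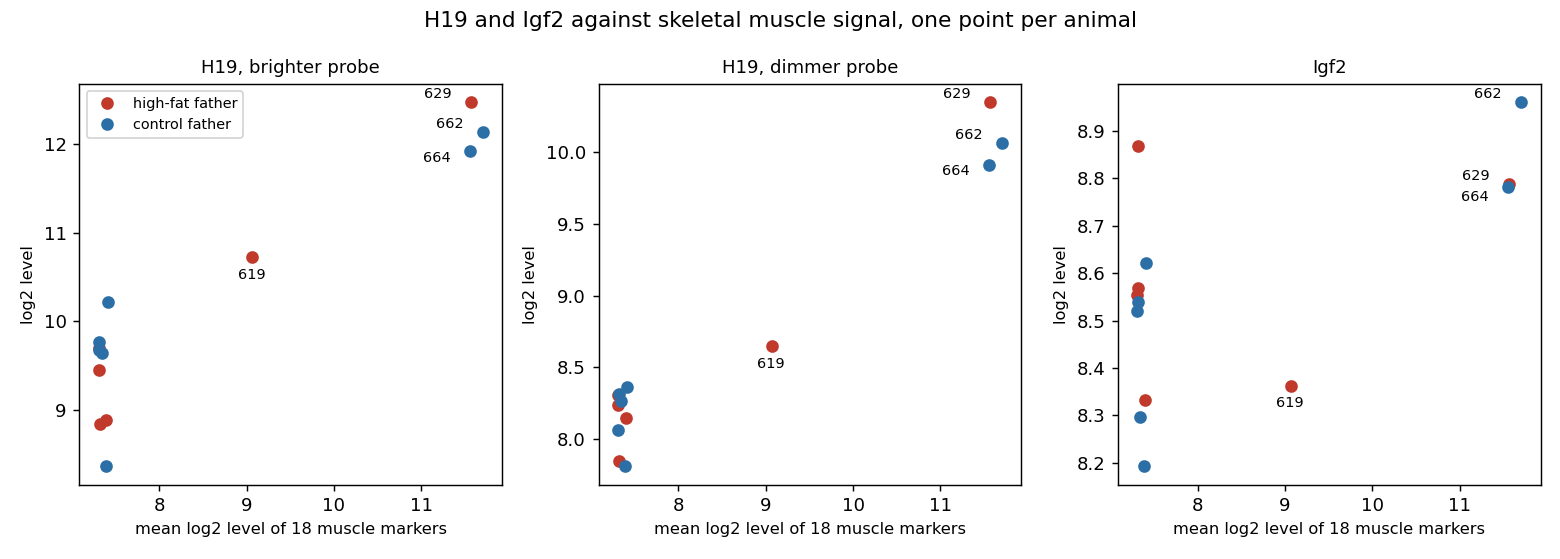
Log2 level of the brighter H19 probe, the dimmer H19 probe and Igf2 (vertical) against the mean log2 level of 18 skeletal muscle markers (horizontal), 1 point per daughter, red for high-fat and blue for control. The 4 numbered arrays with most muscle signal stand above the other 9 for both H19 probes, while Igf2 is high in 3 of the 4 (8.79 in high-fat 629, 8.96 in control 662 and 8.78 in control 664) and low in high-fat 619 (8.36).

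H19 and Igf2 also carry microRNAs inside their RefSeq genes, all on the minus strand of chromosome 1 and shown because H19 was the member whose level separated the arrays and Igf2 is its neighbour. The seed, bases 2 to 8, is in capitals.
rno-miR-675-5p (in H19): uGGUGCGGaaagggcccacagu
rno-miR-675-3p (in H19): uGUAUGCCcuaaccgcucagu
rno-miR-483-5p (in Igf2): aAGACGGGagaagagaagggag
rno-miR-483-3p (in Igf2): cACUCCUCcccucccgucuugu
No seed was shared between these 4 RefSeq sequences (GRCr8), and the microRNAs themselves were not analysed here.

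The other maternally expressed genes varied little. Igf2r encodes the receptor that clears Igf2 protein from the cell surface without passing on a growth signal. Its lowest, median and highest log2 levels were 9.48, 9.53 and 9.67 in high-fat daughters, against 9.31, 9.51 and 9.60 in control daughters, and the difference was 0.05 ± 0.06 (SE; 95% interval -0.08 to 0.18). Cdkn1c, an inhibitor of cyclin-dependent kinases from the same chromosome region as Igf2 and H19, had 7.83, 8.02 and 8.20 in high-fat daughters, against 7.74, 7.91 and 8.11 in control daughters. Its difference was 0.06 ± 0.07 (SE; 95% interval -0.10 to 0.22). With array spread as a covariate the Igf2r difference was -0.019 ± 0.045 and that of Cdkn1c -0.0018 ± 0.071.

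Gnas makes several transcripts from different starts. The one for the stimulatory G protein is read from both copies in most tissues and mainly from the mother's in a few, and others are read from 1 parent alone, so the gene is kept apart from both classes here. Its brighter probe gave 13.28, 13.31, 13.33, 13.34, 13.42 and 13.48 in high-fat daughters 660, 619, 624, 620, 629 and 663. In control daughters it gave 13.20, 13.24, 13.25, 13.31, 13.31, 13.31 and 13.37 in 627, 664, 622, 658, 656, 631 and 662. These were the steadiest values of the 9 genes, and 2.67% of all genes had a smaller within-group SD. The difference was 0.07 ± 0.05 (SE; 95% interval -0.03 to 0.18; unadjusted p = 0.14 and adjusted p = 0.53 by limma), and the interval covers 0.981 to 1.13 times the control level. It was 0.08 ± 0.05 with array spread as a covariate and 0.08 ± 0.07 without the 4 muscle-rich arrays.

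The second Gnas probe, which the annotation lists under other accessions than the first, varied more. Its level ran from 7.41 to 8.18 in high-fat daughters and from 7.38 to 8.18 in control daughters, and its difference was 0.02 ± 0.16 (SE). Across the 13 arrays the Pearson correlation between the Gnas probes was 0.17, against 0.96 between the H19 probes. Both are descriptions over arrays in which the groups were not separated.

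**Figure D3:**
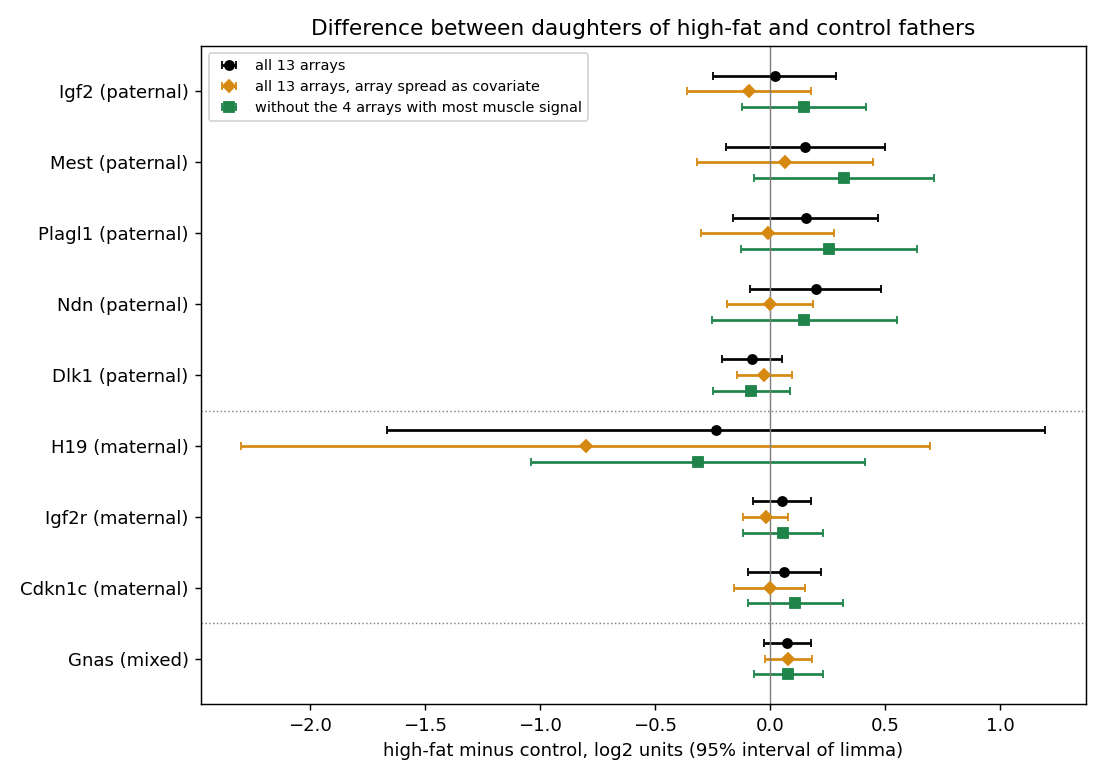
Difference between high-fat and control daughters in log2 units (horizontal, high-fat minus control) for each measured gene (vertical, paternally expressed genes on top, then maternally expressed genes, then Gnas), with limma's 95% interval, in 3 settings. All intervals cover 0, and with array spread as a covariate the values of Ndn and Plagl1 are -0.0014 and -0.0097.

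The numbers in the labels fall in 2 ranges of unstated meaning, and each range holds both groups. Among daughters 619 to 631 (4 high-fat, 3 control) the difference was -0.05 ± 0.23 (SE) for Mest, 0.49 ± 0.75 for H19 and 0.11 ± 0.08 for Cdkn1c. Among daughters 656 to 664 (2 high-fat, 4 control) it was 0.38 ± 0.19 for Mest, -1.23 ± 1.04 for H19 and -0.04 ± 0.14 for Cdkn1c. The muscle-rich arrays of the lower range, 619 and 629, were both high-fat, and those of the upper range, 662 and 664, were both control. The difference between the ranges was tested with an interaction term in limma. None of the 9 genes passed (smallest adjusted p = 0.999), and 0 had an unadjusted p under 0.05, where the background share was 3.47%. The smallest unadjusted p was 0.22, for Mest.

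Across daughters, some of these genes moved together. Values were first centred on their group mean, and 45 relations, 36 between pairs of genes and 9 between a gene and the spread of its array, were tested with 100000 permutations within groups and adjusted together. The relation of H19 with Igf2 had a Pearson r of 0.71 and a Spearman rho of 0.70 over all 13 arrays. Neither passed the adjustment (adjusted permutation p = 0.061 for Pearson's r and 0.091 for Spearman's rho). Without the 2 arrays farthest from the Igf2 median, control 658 and 662, r was 0.52, and with array spread taken out of both genes it was 0.62. Because the muscle-rich arrays held the highest H19 values, the relation was also computed in the 9 arrays outside them. There Pearson's r was 0.79 (exact p = 0.0049 over 2880 arrangements within groups, adjusted 0.036) and Spearman's rho was 0.78 (exact p = 0.024, adjusted 0.13). Pearson's r was 0.81 without the 2 arrays farthest from the Igf2 median, here high-fat 660 and 663, so control 658 stayed in. Daughters with more Igf2 message had more H19 in these 9 arrays, and the rank correlation did not pass the adjustment. Control 658 was lowest for both genes, and in the 9 arrays both also went with array spread, with an r of 0.65 for Igf2 (exact p = 0.071, adjusted 0.21) and 0.66 for H19 (exact p = 0.11, adjusted 0.25).

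Plagl1 and Mest had a Pearson r of 0.77 over 13 arrays (permutation p = 0.0089, adjusted 0.061) and a Spearman rho of 0.44 (permutation p = 0.18, adjusted 0.50). Neither passed the adjustment, and the relation rests on 2 animals, since r was 0.21 without the 2 arrays farthest from the Mest median. With array spread taken out of both genes r was 0.78. Without the 4 muscle-rich arrays r was 0.71 (exact p = 0.082, adjusted 0.22). It was 0.32 when the 2 of those 9 arrays farthest from the Mest median were also left out. High-fat 629 and control 658 held the lowest values of both genes.

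Ndn and Igf2r had an r of 0.82 (permutation p = 0.0015, adjusted 0.023) and a rho of 0.81 (permutation p = 0.0027, adjusted 0.060), with an r of 0.69 without the 2 arrays farthest from the Ndn median. Both also followed the spread of the array, with an r of 0.84 for Ndn (permutation p = 0.00022, adjusted 0.0099) and 0.80 for Igf2r (permutation p = 0.0013, adjusted 0.023). Their rho with it was 0.76 for Ndn (permutation p = 0.0065, adjusted 0.071) and 0.79 for Igf2r (permutation p = 0.0042, adjusted 0.062). Without the 2 arrays farthest from the median of the gene these r were 0.61 for Ndn and 0.68 for Igf2r. With array spread taken out of both genes, the r between Ndn and Igf2r was 0.47. Dlk1 ran the other way, with an r of -0.75 with Igf2r (permutation p = 0.0039, adjusted 0.039), a rho of -0.84 (permutation p = 0.0012, adjusted 0.054), and an r of -0.69 without the 2 arrays farthest from the Dlk1 median and -0.57 with array spread taken out. Ndn and Dlk1 had an r of -0.70 (permutation p = 0.0043, adjusted 0.039) and a rho of -0.72 (permutation p = 0.0078, adjusted 0.071), with an r of -0.48 without the 2 arrays farthest from the Ndn median and -0.44 with array spread taken out. Dlk1 itself had an r of -0.60 with array spread (permutation p = 0.042, adjusted 0.18) and a rho of -0.70 (permutation p = 0.013, adjusted 0.091), with an r of -0.65 without the 2 arrays farthest from its median. In the 9 arrays outside the muscle-rich ones, the r between Ndn and Igf2r was 0.97 (exact p, adjusted 0.035). Their rho there was 0.97 (adjusted 0.039). Ndn with array spread had an r of 0.91 (adjusted 0.031) and a rho of 0.92 (adjusted 0.039). Igf2r with array spread had 0.87 (adjusted 0.035) and 0.90 (adjusted 0.0875). Dlk1 had an r of -0.87 with Ndn (adjusted 0.036) and -0.82 with Igf2r (adjusted 0.098), and neither rho passed the adjustment. Ndn and Dlk1 were dim, with group means of 7.58 to 7.93, below the middle of the mean levels of all genes. The medians of the arrays ran from 7.66 to 7.72. Whether the opposite courses of these genes go beyond array spread was not tested.

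**Figure D4:**
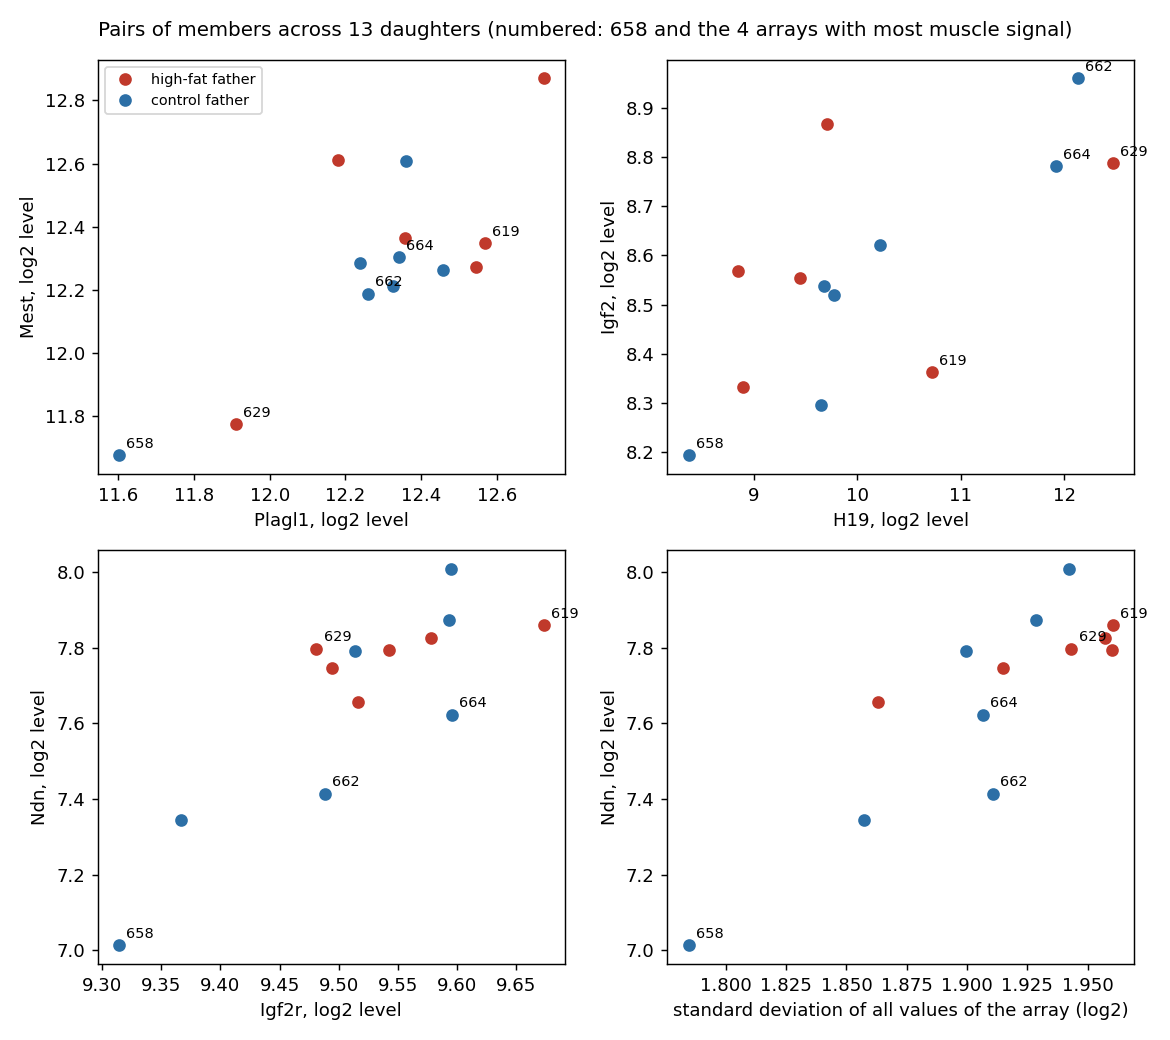
Pairs of measured values across the 13 daughters, red for high-fat and blue for control, with log2 levels on all axes except the lower right panel, whose horizontal axis is the standard deviation of all values of an array. Control 658, with the smallest spread at 1.78, holds the lowest value of Plagl1, Mest, H19, Igf2, Igf2r and Ndn.

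By the same centred correlation over 13 arrays, the genes most like each member were listed as a description. For Igf2 they were Pex16 (0.91) and Psma1 (0.89), for Mest Rmdn3 (0.91) and Surf4 (0.91), and for Plagl1 Flot1 (0.98) and Tnpo3 (0.96). For Ndn they were Fam222b (0.97) and Ttc27 (0.96), and for Dlk1 Hmx2 (0.92) and Art5 (0.91). For H19 they were Hif1an (0.95) and Fem1a (0.95), for Igf2r Srpk2 (0.96) and Mapk7 (0.95), for Cdkn1c Prpf19 (0.91) and Pcyt2 (0.89), and for Gnas Gk (0.88) and Stmn3 (0.86). These points share array spread and muscle signal. Each value is the highest or next highest among the other genes, leaving out those named by a locus or clone number.

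Of 22 further genes listed as read from the father's copy in at least some mouse tissues, 14 were measured. Whether the genes of this list and the next are imprinted in rat fat was not measured. The high-fat mean exceeded the control mean for 8 and lay under it for 6, with a median difference of 0.02. An unadjusted p under 0.05 was found for 1 of the 14 (7.14%), close to the 7.96% of all genes. It was Dio3, the enzyme that inactivates thyroid hormone, with 6.64 to 6.70 in high-fat and 6.70 to 6.91 in control daughters and a difference of -0.12 ± 0.05 (SE; adjusted p = 0.53 by limma). Dio3 was dim, with all values below the medians of the arrays, 7.66 to 7.72. The count was 0 once the muscle-rich arrays were left out, where 550 of all 14506 genes had such a p. Array spread as a covariate also gave 0, where 407 genes had one. Of 26 further genes listed as read from the mother's copy in at least some tissues, 23 were measured. Of these 14 had a higher and 9 a lower mean, with a median difference of 0.03 and 0 with an unadjusted p under 0.05. That last number was 1 without the muscle-rich arrays, against 550 of all genes. It was 2 without the 3 arrays of smallest spread, against 1395 of all genes. Of both lists, 0 genes passed limma's adjusted test. The protein machinery that keeps imprints, such as Zfp57, Trim28 and Dnmt1, showed 9 of 13 measured genes with a higher mean, a median of 0.05 and 0 genes with an unadjusted p under 0.05. With array spread as a covariate 5 of the 13 had a higher mean, with a median of -0.02.

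The wider IGF axis, which holds the ligand Igf1, the receptors, the binding proteins and the proteins that bind Igf2 message, had 17 of 21 genes measured. Of these 10 had a higher mean and 7 a lower one, with a median difference of 0.04. An unadjusted p under 0.05 was seen for 2, 11.8% against the background share of 7.96%. Insr, the insulin receptor through which Igf2 also acts, ran from 11.75 to 11.92 in high-fat and from 11.38 to 11.91 in control daughters, a difference of 0.20 ± 0.08 (SE; adjusted p = 0.53 by limma). Igf2bp1, which binds Igf2 message, ran from 6.80 to 7.05 in high-fat and from 6.99 to 7.27 in control daughters, a difference of -0.14 ± 0.06 (SE; adjusted p = 0.53). Its values too lay below the medians of the arrays. Array spread as a covariate left 1 of the 17 under that p, and so did leaving out the 4 muscle-rich arrays. Over all 14506 genes these fits left 407 and 550.

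A further list holds genes around the Gnas protein (Gs), from adrenergic receptors to adenylyl cyclases and protein kinase A. It also holds inhibitory G proteins and phosphodiesterases, which counter the signal, so its counts mix both kinds. Of the 17 measured, 16 had a higher mean in high-fat daughters, against 58% of all genes, with a median difference of 0.10. A higher mean with an unadjusted p under 0.05 was found for 4 of the 17 (23.5%), where 5.42% of all genes had one. Adcy6, an adenylyl cyclase, differed by 0.15 ± 0.06 (SE), Prkar2b, the main regulatory subunit of protein kinase A in fat, by 0.14 ± 0.06, and Pde3b, the phosphodiesterase through which insulin lowers cyclic AMP, by 0.20 ± 0.09, each with an adjusted p of 0.53 by limma. The adipocyte markers given above had 11 of 12 higher, and the part of fat-cell content in the Gs values was not tested. Leaving out the 4 muscle-rich arrays gave 14 of the 17 a higher mean and 1 an unadjusted p under 0.05, where 550 of all 14506 genes had one. Array spread as a covariate gave 11 and 1, with a median of 0.03, where 407 of the 14506 had one.

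**Figure D5:**
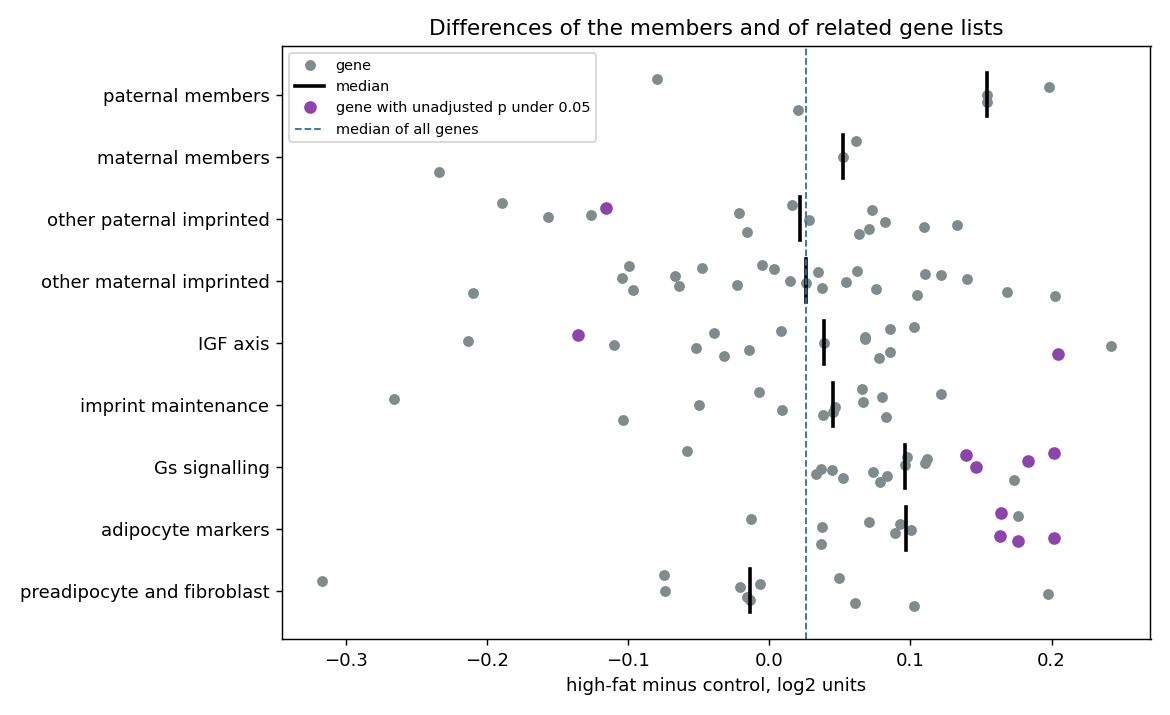
Difference between high-fat and control daughters in log2 units (horizontal, high-fat minus control) for each gene of the lists named at the left, with the list median as a black bar and the median of all genes, 0.03, as a dashed line. Purple points are genes with an unadjusted p under 0.05, which lie in the lists of other paternal imprinted genes (1), the IGF axis (2), Gs signalling (4) and adipocyte markers (4).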

How the data were processed

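The deposited table holds log2 levels of 29214 probes on 13 arrays. RMA, a method of background correction, quantile normalization and summary, and the program Partek are named per the submitters' processing notes, with no version or filter stated. Array spread still differed afterwards, which can move a gene's level with the array it was read from, and members followed it in different directions. Detection over background was not assessed, and precision is limited by how many arrays there are. Probes were named from the platform annotation, where 15310 carry 1 symbol, 323 several and 13581 of the table are not listed. The brightest probe per symbol left 14506 genes. Groups were taken from the sample titles and compared with limma 3.58.1 in R 4.3.3 (lmFit and eBayes, two-sided, Benjamini-Hochberg adjustment over all genes, threshold 0.05, no covariate), and the fit was tested on simulated data. The members, lists, tests and most alternatives were chosen with earlier results of these data known. Adipoq was named as a check of the tissue label. The fits without the 3 arrays of smallest spread, the fit with mesothelium markers as a covariate and the alternatives of the further lists were added later. Named genes are the members, up to 3 genes per further list with the smallest unadjusted p under 0.05, and the 2 genes most like each member. Names that are locus or clone numbers were left out of the latter. Cell type markers other than those of adipocytes are given as counts. Zfp57, Trim28, Dnmt1 and Igf1 were named as examples without values. CpG and motif counts used RefSeq windows of assembly GRCr8.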

Additional observations from a re-analysis of the deposited data

Results flagged for a closer look

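Plagl1 in control daughter 658 stood apart from its group. Its log2 level was 11.60, the next control lay at 12.24, and this gap took 0.742 of the whole range of the 7 controls, more than Dixon's 95% limit for 7 samples. The same array had the smallest spread of values, 1.78 log2 units. Of 18 such checks, 9 genes in 2 groups, this was the 1 result, and chance flags about 1 in 20.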

How the results depend on the processing

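The 9 differences were refitted in up to 27 other settings each, 240 values in all. In 219 they kept their direction and stayed above the threshold, in 21 the sign turned, and 0 passed an adjusted p of 0.05 by limma (smallest 0.33), with 1 unadjusted p under 0.05, Ndn without control 622. The count of genes past the threshold was 0 in each setting. With array spread as a covariate the sign turned for Igf2 (-0.092), Plagl1 (-0.0097), Ndn (-0.0014), Igf2r (-0.019) and Cdkn1c (-0.0018), and the median of the paternally expressed genes was -0.0097, against 0.15. Renewed quantile normalization turned Igf2 (-0.012) and Igf2r (-0.0047), array weights turned Igf2 (-0.060), and leaving out the 3 arrays of smallest spread turned Igf2 (-0.056) and Igf2r (-0.0036). Within daughters 619 to 631 Mest (-0.052) and H19 (0.49) turned, within 656 to 664 Igf2 (-0.018) and Cdkn1c (-0.042), and with mesothelium markers as a covariate H19 (0.081). The cause was not tested. Leaving out 1 daughter at a time moved Igf2 between -0.040 (without control 658) and 0.088 (without control 662) and H19 between -0.73 (without high-fat 629) and 0.080 (without control 662), and turned no other member. It moved the paternal median between 0.05 (without control 658) and 0.19, and the maternal median between 0.02 and 0.08. Genes with an unadjusted p under 0.05 numbered 1155, between 508 (without high-fat 624) and 2508 (without high-fat 660) with 1 daughter left out, 2179 with array weights, 611 and 407 with number range or array spread in the model, 550 when the muscle-rich arrays were left out, 1990 and 135 within the number ranges, 666 with mesothelium markers as a covariate, and 661 among the brighter genes alone, where fewer genes were tested. No paired analysis was possible because the groups share no animal numbers.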
